A study of Mus musculus with 6 samples.

Results

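The genes of the mRNA deadenylation and decay machinery were examined in cultured mouse cerebellar granule cells (GCs) after knockdown (KD) of YTHDF2. They are a list of 53 genes, taken by gene symbol from the CCR4-NOT complex, the PAN2-PAN3 deadenylase, the decapping enzymes, the LSM ring, the XRN exonucleases, the exosome and nonsense-mediated decay. All 53 matched 1 gene each in the GENCODE M21 annotation of GRCm38, and all passed the filter on low counts that left 17214 of the 53421 genes of the table for testing. The choice of members used no measured value, although earlier results of these data were known when the list was drawn up.

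GCs of C57BL/6 mice, with an age of postnatal day 8 in the labels, were dissociated from whole cerebella, cultured, and infected with a lentivirus carrying the short hairpin RNA shYthdf2 or the control hairpin shCtrl. Infected cells were selected with puromycin, and bulk RNA-seq was made from 3 libraries a group, numbered 1, 2 and 4, with 17246821 to 21546595 counts each. All cells of both groups therefore carried a lentivirus and had been through selection, and the source of each replicate culture and the hairpin against Ythdf2 used for these libraries were not stated. The groups here follow the description of each sample, whose names are also the column names of the table, whereas the sample titles and the genotype labels give the groups the other way round, so that every direction below would invert if the titles were right.

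Most cytoplasmic mRNAs are broken down in a fixed order. The poly(A) tail, held by the cytoplasmic poly(A)-binding protein, is first trimmed by PAN2-PAN3 and then removed by CCR4-NOT. The deadenylated mRNA is either decapped by DCP2 with its activators and degraded by XRN1 from the 5′ end, or degraded from the 3′ end by the exosome with the SKI complex. YTHDF2 is the best known reader of N6-methyladenosine (m6A) that promotes mRNA decay, and it does so by recruiting CCR4-NOT through the scaffold subunit CNOT1. Proteins of the BTG and TOB family bind the CNOT7 and CNOT8 deadenylases and so speed up removal of the tail, TOB1 and TOB2 through contact with the poly(A)-binding protein, and BTG2 is also known as a gene induced by growth factors, activity and stress.

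Ythdf2 itself had 501, 402 and 501 normalized counts in KD replicates 1, 2 and 4 and 618, 841 and 628 in the corresponding controls. The groups did not overlap, and the lower values stood in the libraries described as KD. Ythdf2 was furthest below its control in replicate 2, at 402 against 841. Its log2 fold change was -0.57 (standard error, SE, of 0.16, adjusted p = 0.125 in the quasi-likelihood test of edgeR, adjusted by Benjamini-Hochberg over all genes tested). Normalized counts are counts scaled to a common library size by the trimmed mean of M-values (TMM). Replicates 1 and 4 lay close together in each group, and replicate 2 lay apart. Over the 53 genes, the median absolute log2 difference between replicates 1 and 4 was 0.077 for shYthdf2 and 0.054 for shCtrl, against 0.206 to 0.224 between replicate 2 and either of them in its own group. In the mean over genes, replicates 1 and 4 still differed by more than counting noise, with a chi-square per gene of 3.34 for shYthdf2 and 4.68 for shCtrl. The median chi-square was 0.72 and 0.74, against 5.43 to 8.19 between replicate 2 and either of them in its own group. Replicates 1 and 4 were kept as separate libraries, and results are also given with their counts summed. Granule cell markers had summed normalized counts of 133170 to 143139 in the shYthdf2 libraries and 145069 to 148197 in the shCtrl libraries. The genes of this list went both ways. By group mean, Pax6, Neurod1, Zic2 and Cntn2 were lower after KD, and Zic1, Cbln3, Gabra6 and Rbfox3 were higher. Markers of oligodendrocytes summed to 10942 to 14976 and 4034 to 14222, where the highest shCtrl library was replicate 2, and those of astrocytes and Bergmann glia to 8667 to 9235 and 4671 to 10322, with the same library highest. Interneuron markers summed to 7116 to 8878 after KD and 5570 to 6659 in the controls, which did not overlap. Markers of dividing progenitors were few but also higher after KD, at 161 to 183 against 81.3 to 139, and those of microglia summed to 696, 195 and 720 in KD replicates 1, 2 and 4 and 137, 493 and 126 in the controls. Markers of Purkinje and vascular cells overlapped between the groups, with Cldn5 of blood vessels near 0. Of 38 cell type markers tested, 0 passed the adjusted threshold in edgeR and 5 had an unadjusted p under 0.05, and the part of these cells in the results was not tested. In such bulk samples, fewer cells of a type and less RNA per cell cannot be told apart.

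Most transcripts of the enzymes and scaffolds had values close to those of the controls, and the 4 lowest fold changes were those of the adaptors Btg2, Tob1 and Tob2 and of the LSM ring gene Lsm4. None of the 53 genes passed an adjusted p of 0.05 in edgeR's quasi-likelihood test, where 0.604% of all genes tested passed. By DESeq2, 4 passed (Tob1, Tob2, Btg2 and Lsm4) beside 7.67% of all genes tested, and by limma-voom 0. At an unadjusted p under 0.05, 7 of the 53 were lower after YTHDF2 KD and 0 were higher, which is 13.2% against 20.1% of all genes tested in either direction and 10.6% of them in the lower direction. The 7 were the adaptors Tob1, Tob2 and Btg2, the LSM ring subunit Lsm4, the CCR4-NOT subunit Cnot9, the exosome nuclease Exosc10 and the decapping scaffold Edc4. The median log2 fold change of the 53 genes was -0.03 and that of all genes tested was 0.01, and the median absolute log2 fold change was 0.15 against 0.25. In all, 37 of the 53 genes, or 69.8%, lay within 0.25 of 0 on the log2 scale, compared with 49.8% of all genes tested.

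Same-numbered libraries deviated together, which replicate 2 lying apart in both groups can give by itself, and the replicate number was also fitted as a block. With the replicate block, Tob1 passed the adjusted threshold, where 1.35% of all genes tested passed, and 18 of the 53 genes had an unadjusted p under 0.05, 14 lower and 4 higher, which is 34.0% against 31.6% of all genes tested. Beside the 7 these were Cnot3, Pabpc1, Edc3, Lsm1, Lsm7, Skiv2l and Upf1, with lower values, and Dcp1a, Xrn1, Dis3 and Upf2, with higher ones. With the counts of replicates 1 and 4 summed, only Tob1, Tob2 and Btg2 of the 53 genes had an unadjusted p under 0.05 (5.66% against 5.07% of all genes tested) and none passed the adjusted threshold. For 15 of the 53 genes, or 28.3%, no KD library lay within the range of the controls or the reverse, so that the groups did not overlap, against 26.0% of all genes tested. Of the 15, 10 were lower and 5 higher in the shYthdf2 libraries.

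**Figure D1:**
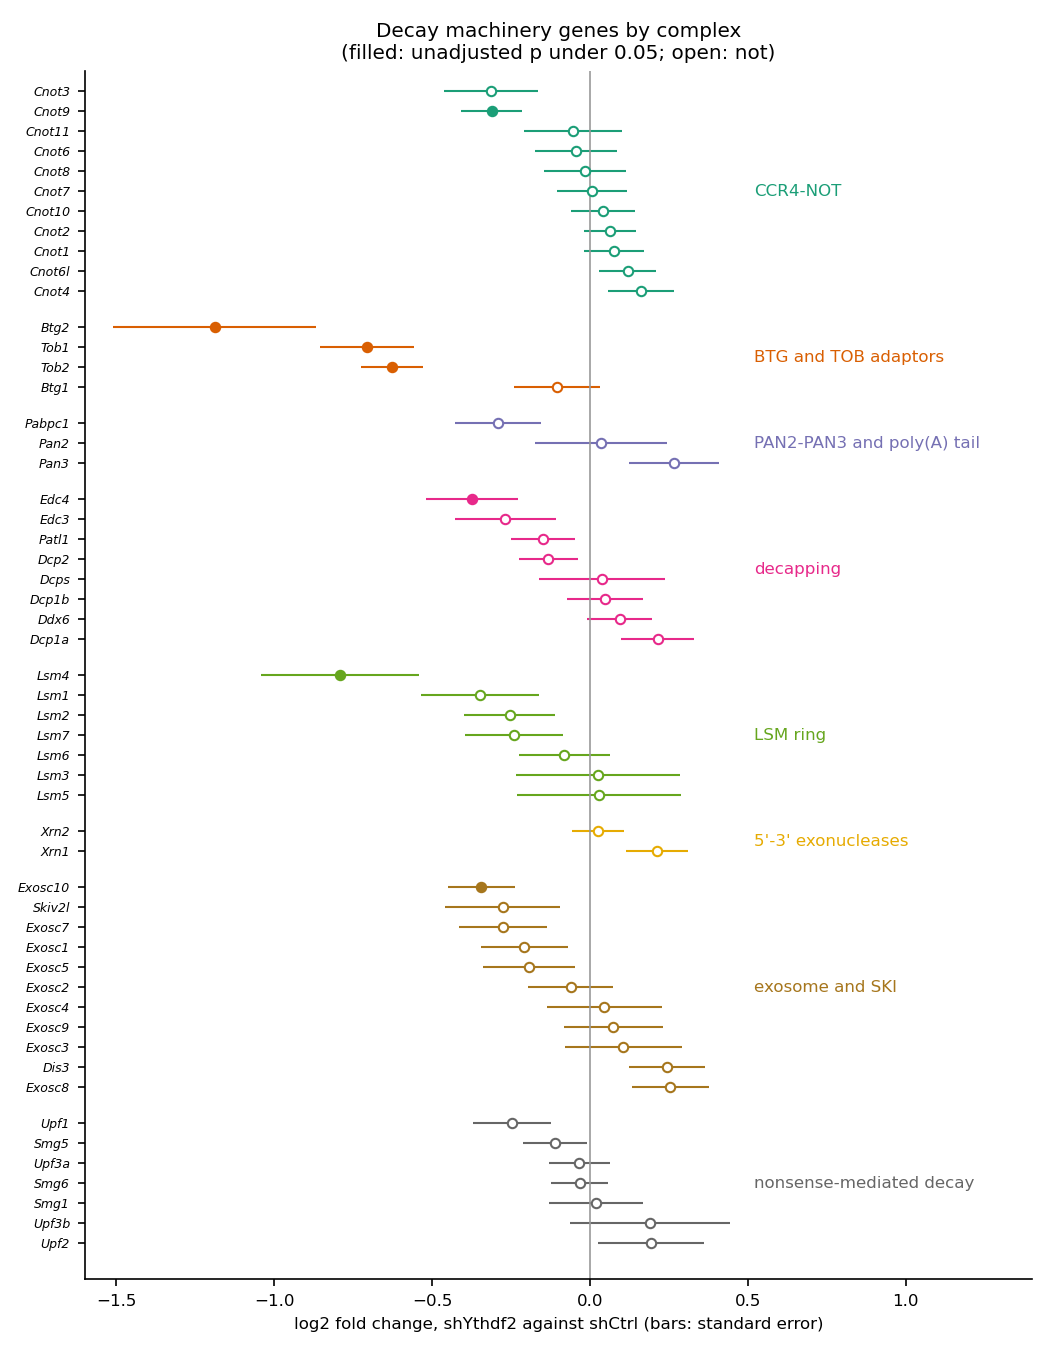
Log2 fold change of shYthdf2 against shCtrl (horizontal axis) for each of the 53 genes, grouped by complex and sorted within it; points are edgeR estimates, bars are standard errors (3 libraries a group), and filled points had an unadjusted p under 0.05. The 7 filled points are all below 0, from -1.19 for Btg2 to -0.31 for Cnot9, and most of the others lie within 0.25 of 0.

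The adaptors of the BTG and TOB family had the lowest median of the complexes, with a median log2 fold change of -0.67 over 4 genes, 3 of which did not overlap between the groups. Tob1 (ENSMUSG00000037573, chromosome 11 from 94211454 to 94215495), which couples the poly(A)-binding protein to CCR4-NOT, had 1972, 1491 and 1809 normalized counts in KD replicates 1, 2 and 4 and 3171, 2409 and 3014 in the corresponding controls. The highest KD library was below the lowest control, and replicate 2 was the lowest of its group on both sides. The shYthdf2 mean was 61.3% of the shCtrl mean, with a log2 fold change of -0.71 (SE 0.15, edgeR adjusted p = 0.0720). Between same-numbered libraries the log2 difference was nearly constant, at -0.69, -0.69 and -0.74, and with the replicate block Tob1 fell by 0.70 on the log2 scale (edgeR, adjusted p = 0.0417).

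Tob2 (ENSMUSG00000048546, chromosome 15 from 81848272 to 81858796), the close relative of Tob1, had 1287, 1421 and 1271 normalized counts after KD and 2191, 1903 and 2053 in the controls. The groups did not overlap, and the libraries within each group were closer together than for Tob1. Its log2 fold change was -0.63 (SE 0.10), and its adjusted p = 0.0502 in edgeR was just above the threshold, as it was with the replicate block at 0.0503. Between same-numbered libraries the log2 difference was -0.77, -0.42 and -0.69, smallest in size in replicate 2. Without the replicate 2 library of shCtrl, Tob1 and Tob2 passed at adjusted p = 0.00866 and 0.00566 (edgeR), and with replicates 1 and 4 summed both were at adjusted p = 0.921.

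Btg2 (ENSMUSG00000020423, chromosome 1 from 134075170 to 134079120), an adaptor of CNOT7 and CNOT8 and an immediate-early gene, had 414, 312 and 387 normalized counts after KD and 1085, 442 and 1012 in the controls. The shCtrl library of replicate 2 was far below the other shCtrl libraries and only slightly above the highest shYthdf2 library. The log2 fold change of Btg2, -1.19 (SE 0.32, edgeR adjusted p = 0.115), was the lowest of the 53 genes, and the difference between the libraries of replicate 2 was -0.50 against -1.39 and -1.38 for replicates 1 and 4. A list of 16 immediate-early genes was drawn up to be read beside Btg1, Btg2, Tob1 and Zfp36, which are known to respond to neuronal activity. Zfp36, a gene outside the list of members, had a log2 fold change of 0.06 (SE 0.45), with overlapping groups. The summed normalized counts of the immediate-early genes were 9423, 6448 and 9610 in KD replicates 1, 2 and 4. In the corresponding controls they were 65929, 19395 and 64384, so that replicate 2 of shCtrl was low there too. Of the 15 immediate-early genes tested, 4 passed the adjusted threshold in edgeR, all lower, where 0.360% of all genes tested passed in that direction. At an unadjusted p under 0.05 there were 12, also all lower, where 10.6% of all genes tested were. Since this list was chosen with earlier results of these data known, these shares are a description and no test of it. With the counts of replicates 1 and 4 summed, and in limma-voom, 0 of them passed the adjusted threshold. Whether the levels of the adaptors moved with those of the immediate-early genes was not tested.

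Btg1 (ENSMUSG00000036478, chromosome 10 from 96617006 to 96622809), the closest relative of Btg2, had 2277, 2714 and 2282 normalized counts after KD and 2393, 3071 and 2354 in the controls. The groups overlapped, and replicate 2 was the highest of its group on both sides. The log2 fold change was -0.10 (SE 0.14, edgeR adjusted p = 0.713). The annotated copies Btg1-ps1 and Btg1-ps2 had 0 counts in the 6 libraries. On the log2 scale the ratio of Btg1 to Btg2 within a library was 2.46, 3.12 and 2.56 after KD and 1.14, 2.80 and 1.22 in the controls, so that the groups overlapped because of replicate 2 of shCtrl (two-sided exact permutation test, p = 0.3, adjusted p = 0.525 over 7 pairs).

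**Figure D2:**
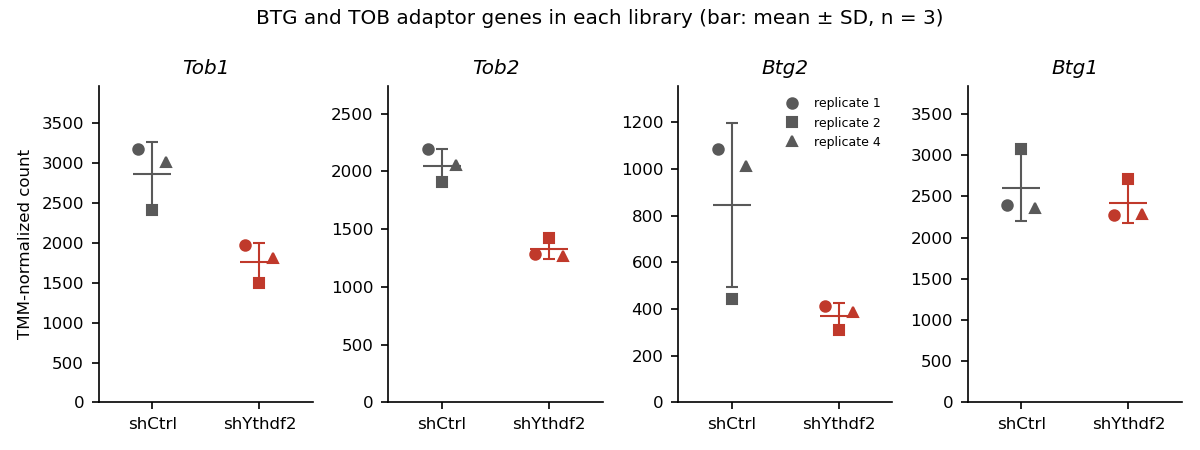
TMM-normalized counts (vertical axis, from 0) of Tob1, Tob2, Btg2 and Btg1 in each of the 6 libraries; symbols mark the replicate number, and bars the mean and SD of 3 libraries a group. The groups are apart for Tob1, Tob2 and Btg2, where replicate 2 of shCtrl lies close to the shYthdf2 libraries for Btg2, and overlap for Btg1.

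The 250 bases before the RefSeq transcription start were read for each of these adaptors. The reason was that many genes induced by neuronal activity are known targets of CREB, which binds the cAMP response element TGACGTCA. The windows with a match (Btg2, Tob1 and Btg1) are shown on the strand of the gene, 5′ to 3′, in GRCm38.p6. Each match to TGACG or to its reverse complement CGTCA is in capitals. TGACGTCA is its own reverse complement and holds both shorter matches.
Btg2, minus strand, chr1:134079156-134079405: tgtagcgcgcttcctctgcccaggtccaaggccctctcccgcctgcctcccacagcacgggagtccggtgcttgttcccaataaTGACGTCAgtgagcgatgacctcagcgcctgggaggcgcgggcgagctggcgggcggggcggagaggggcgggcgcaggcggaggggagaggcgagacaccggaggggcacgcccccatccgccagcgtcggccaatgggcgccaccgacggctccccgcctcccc
Tob1, plus strand, chr11:94211204-94211453: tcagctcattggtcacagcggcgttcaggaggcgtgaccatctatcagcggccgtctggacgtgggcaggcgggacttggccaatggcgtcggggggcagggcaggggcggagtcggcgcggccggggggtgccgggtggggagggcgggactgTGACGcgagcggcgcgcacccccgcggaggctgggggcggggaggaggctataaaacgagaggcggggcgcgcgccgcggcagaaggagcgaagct
Btg1, plus strand, chr10:96616751-96617000: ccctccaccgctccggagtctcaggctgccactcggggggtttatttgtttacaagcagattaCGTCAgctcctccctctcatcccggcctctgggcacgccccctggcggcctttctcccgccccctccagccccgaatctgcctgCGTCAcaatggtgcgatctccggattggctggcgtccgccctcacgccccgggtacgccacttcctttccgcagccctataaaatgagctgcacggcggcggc
The Btg2 window held the whole element, 166 bases before the start site. The Tob1 window held 1 match to TGACG and that of Btg1 held 2, while the window of Tob2 (chromosome 15 from 81858327 to 81858576, minus strand) held none. Of all 32851 windows of the same length, 1.55% held TGACGTCA and 17.8% held TGACG on either strand. Among the 52 windows of the 43 members with an entry, 2 held TGACGTCA (Btg2 and Lsm2) and 13 held TGACG. Of the 16 windows of 12 immediate-early genes, 1 held TGACGTCA (Dusp1) and 12 held TGACG. A match of letters says nothing of binding.

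The subunits of CCR4-NOT, which form the main cytoplasmic deadenylase, had a median log2 fold change of 0.01 over 11 genes, and 9 of them lay within 0.25 of 0. Cnot1, the scaffold that carries the deadenylase module and that YTHDF2 contacts, had 5462, 4793 and 5344 normalized counts after KD and 4984, 4745 and 5071 in the controls. These ranges overlapped, and the log2 fold change was 0.08 (SE 0.09, edgeR adjusted p = 0.699).

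Cnot7 and Cnot8, which remove the tail, had the smallest changes of the 53 genes. Cnot7, a CAF1 deadenylase, had 2221, 1909 and 2160 normalized counts after KD and 2224, 1858 and 2181 in the controls. Cnot8, its paralog, had 1060, 1282 and 1119 after KD and 1089, 1339 and 1067 in the controls. Both overlapped between the groups, with log2 fold changes of 0.01 (SE 0.11) and -0.01 (SE 0.13), and replicate 2 was low for Cnot7 and high for Cnot8 on both sides. Accordingly the log2 ratio of Cnot7 to Cnot8 was 1.07, 0.57 and 0.95 after KD and 1.03, 0.47 and 1.03 in the controls, a split by replicate number rather than by group. The CCR4-type deadenylases Cnot6 and Cnot6l had log2 fold changes of -0.05 and 0.12, also with overlapping groups.

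Cnot9, the subunit that binds the GW182 proteins of miRNA silencing, stood lower. It had 848, 914 and 812 normalized counts after KD and 1068, 1079 and 1047 in the controls, which did not overlap, and all 3 replicates went the same way. Its log2 fold change came to -0.31 (SE 0.10, edgeR adjusted p = 0.142). Cnot3, a subunit of the NOT module, had a log2 fold change of the same size, -0.31 (SE 0.15, edgeR adjusted p = 0.289), from 1742, 1497 and 1778 normalized counts after KD and 2304, 1660 and 2270 in the controls. Here the groups overlapped, since replicate 2 of shCtrl lay below the shYthdf2 libraries of replicates 1 and 4. Cnot2 and Cnot4 did not overlap between groups in the other direction, at log2 fold changes of 0.06 and 0.16.

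PAN2-PAN3, which trims long tails before CCR4-NOT acts, and the main poly(A)-binding protein gave no gene past an unadjusted p of 0.05 without the replicate block. Pabpc1, which coats the tail, had 2782, 3589 and 2598 normalized counts after KD and 3666, 3834 and 3465 in the controls. The shYthdf2 library of replicate 2 was within the control range and the other shYthdf2 libraries were below it. This gave a log2 fold change of -0.29 (SE 0.14, edgeR adjusted p = 0.287), and with the replicate block the unadjusted p was 0.0166 in edgeR (adjusted p = 0.0960). Of its relatives, Pabpc2 and Pabpc6 had 0 counts over the 6 libraries, Pabpc4l had 21 and Pabpc1l had 238, where Pabpc1 had 20056. Pabpc4, a relative among the further genes below, had 1018, 1045 and 988 normalized counts after KD and 1445, 1092 and 1331 in the controls. These groups did not overlap, at a log2 fold change of -0.34 (SE 0.12, edgeR adjusted p = 0.185). Pan2 and Pan3 had log2 fold changes of 0.03 and 0.27, with overlapping groups.

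Among the 8 genes of decapping the median log2 fold change was -0.05. Dcp2, the enzyme that removes the cap, had 1205, 1108 and 1217 normalized counts after KD and 1240, 1287 and 1339 in the controls. The groups did not overlap but almost met, and the log2 fold change of -0.13 (SE 0.09) had an adjusted p = 0.474 in edgeR. Ddx6, the RNA helicase that joins CCR4-NOT to the decapping factors, had 6568, 6658 and 6433 normalized counts after KD and 5678, 6847 and 5897 in the controls. Its controls spanned the KD values, at a log2 fold change of 0.09 (SE 0.10, edgeR adjusted p = 0.657).

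Edc4, the scaffold on which DCP1 and DCP2 assemble, had 2128, 1811 and 2087 normalized counts after KD and 2776, 2092 and 2938 in the controls. Replicate 2 of shCtrl fell between the shYthdf2 libraries, and replicates 1 and 4 were apart. The estimate on the log2 scale was -0.37 (SE 0.15, edgeR adjusted p = 0.214). Edc3, another activator, was at -0.27 on the log2 scale, but 22.1% of its exon bases are shared with Clk3 on the opposite strand, and whether the counting used strand was not stated. In all, 21 of the 53 genes share exon bases with another annotated gene, and 4 of them share more than 10% of theirs (Edc3, Exosc2, Exosc4 and Exosc9). Dcp1a and Dcp1b, the paralogs that activate DCP2, were at 0.21 and 0.05, and the log2 ratio of Dcp1a to Dcp1b was -0.02, -0.03 and -0.01 after KD and -0.18, -0.11 and -0.26 in the controls. This was the only one of the 7 paralog ratios in which the groups did not overlap, at the smallest p that 3 libraries against 3 allow (two-sided exact permutation test, p = 0.1, adjusted p = 0.467 over 7 pairs).

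The LSM1 to LSM7 proteins bind the shortened tail as a ring and bring in the decapping enzymes, and apart from LSM1 they also belong to the nuclear ring on U6 snRNA. Over these 7 genes the median log2 fold change was -0.24, and 5 were below 0. Lsm4 (chromosome 8 from 70673248 to 70678752) had 263, 289 and 241 normalized counts after KD and 624, 310 and 439 in the controls. The groups did not overlap, but replicate 2 of shCtrl was close to the shYthdf2 libraries and the controls were spread widely. The log2 fold change was -0.79 (SE 0.25, edgeR adjusted p = 0.146), with differences of -1.24, -0.10 and -0.87 between the libraries of replicates 1, 2 and 4. The other ring genes ranged from -0.35 for Lsm1 to 0.03 for Lsm3 and Lsm5.

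Xrn1, the cytoplasmic exonuclease that degrades decapped mRNA, was among the 5 genes whose shYthdf2 libraries all lay above the shCtrl libraries. It had 1806, 1632 and 1777 normalized counts after KD and 1536, 1379 and 1582 in the controls, and the 3 replicates gave similar differences of 0.23, 0.24 and 0.17 on the log2 scale. Its log2 fold change came to 0.21 (SE 0.10, edgeR adjusted p = 0.276). Its nuclear relative Xrn2 was at 0.03.

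The exosome and the SKI helicase Skiv2l, which degrade mRNA from the 3′ end, had members on either side of 0. Exosc10, the exosome's nuclear nuclease, had 1760, 1887 and 1786 normalized counts after KD and 2402, 2025 and 2467 in the controls. The groups did not overlap, and replicate 2 of shCtrl was the lowest control. This gave a log2 fold change of -0.34 (SE 0.11, edgeR adjusted p = 0.143). Dis3, the main processive nuclease of the exosome, went the other way, with 567, 483 and 565 normalized counts after KD and 475, 425 and 461 in the controls. These groups did not overlap either, at a log2 fold change of 0.24 (SE 0.12, edgeR adjusted p = 0.305). The genes of the core subunits ranged from -0.27 for Exosc7 to 0.25 for Exosc8.

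In nonsense-mediated decay, which removes mRNAs with premature stop codons, all 7 genes lay within 0.25 of 0. Upf1, the central helicase, had 2662, 2440 and 2723 normalized counts after KD and 3382, 2607 and 3290 in the controls. The groups overlapped through replicate 2 of shCtrl, and the log2 fold change was -0.25 (SE 0.12, edgeR adjusted p = 0.312). No gene of this group had an unadjusted p under 0.05 without the replicate block, and none was apart between the groups. With the block, Upf1 was at an unadjusted p of 0.0223 and Upf2, which bridges UPF1 and UPF3, at 0.0397 in edgeR (adjusted p = 0.107 and 0.140), with differences between same-numbered libraries of -0.35, -0.10 and -0.27 for Upf1 and 0.21, 0.23 and 0.15 for Upf2. The 36 members outside the rule for named genes, Btg1 among them, lay between -0.35 and 0.27 on the log2 scale, with a lowest adjusted p = 0.295 in edgeR.

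**Figure D3:**
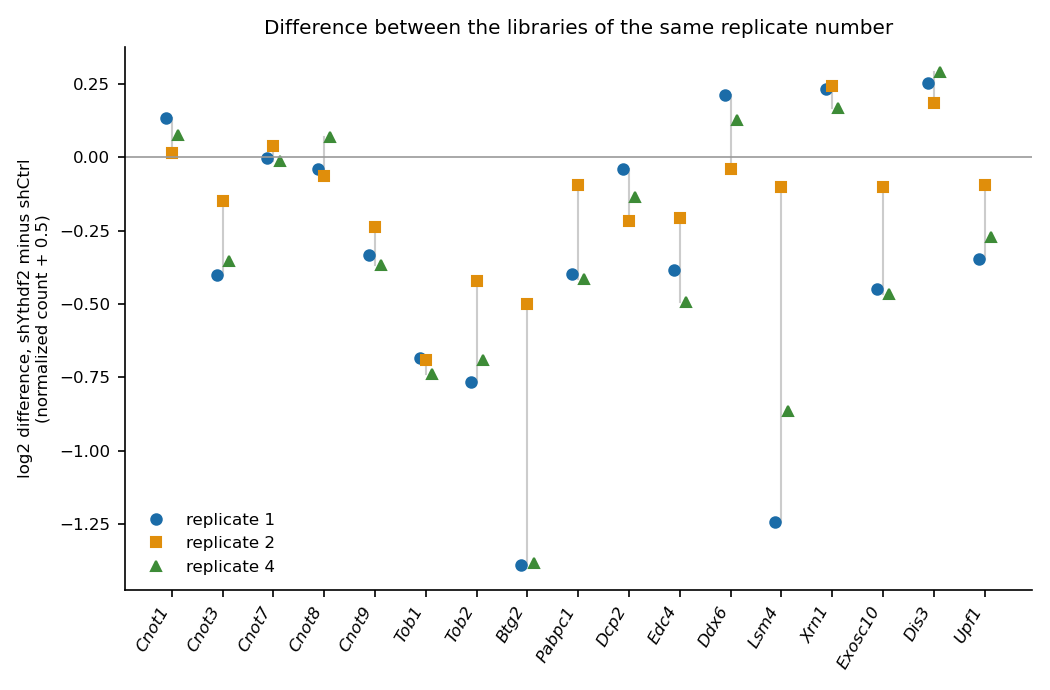
Log2 difference between the shYthdf2 and shCtrl libraries of the same replicate number (vertical axis, normalized count plus 0.5) for the 17 genes chosen by rule, with a symbol for each of replicates 1, 2 and 4. Tob1 gave nearly the same difference in all 3 replicates, while those of Btg2 and Lsm4 were smallest in size in replicate 2, at -0.50 and -0.10.

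Of the 53 genes, 34, or 64.2%, had differences of 1 sign in all 3 replicate numbers, against 53.9% of all genes tested. The difference was smallest in size in replicate 2 for 27 of the 53 genes (50.9%) and for 52.0% of all genes tested. Among the 17 genes chosen by rule this held for 12, and the exceptions were Tob1, Xrn1, Dcp2, Cnot7 and Cnot8. The difference of Ythdf2 was instead largest in replicate 2, at 402 normalized counts after KD and 841 in the control. Whether the depth of the KD had a part in these differences was not tested. With replicate 2 left out of shCtrl, 8 members passed an adjusted p of 0.05 in edgeR (Tob1, Tob2, Btg2, Lsm4, Edc4, Exosc10, Upf1 and Cnot3), beside 18.3% of all genes tested, and with replicate 2 left out of shYthdf2 2 members passed (Tob2 and Pan3), beside 4.70%. When any of the remaining 4 libraries was left out, 0 members passed in edgeR and 0 genes of the table. At an unadjusted p under 0.05 there were 4 or 5 members (7.55% to 9.43%), against 11.2% to 11.9% of all genes tested.

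Levels were compared between genes per length, as TMM-normalized CPM (counts scaled to a common total) per kilobase of merged exon. In the shCtrl libraries they ran from 2.21 ± 0.11 (SD, n = 3) for Exosc5 to 66.0 ± 9.3 (SD, n = 3) for Tob1, with a median of 9.67 against 4.38 for all genes tested, and 43 of the 53 genes were above the latter. Below Tob1 stood Ddx6 at 40.3 ± 4.1, Upf1 at 35.3 ± 4.8, Exosc10 at 33.7 ± 3.5 and Pabpc1 at 29.5 ± 1.5. In the order of the levels, 47 of the 52 neighbouring pairs overlapped between their shCtrl libraries, and the step from Tob1 to Ddx6 did not. By complex, the median level in the controls was highest for the BTG and TOB adaptors at 21.2 and lowest for the exosome and SKI genes at 4.25. Per length of the longest coding transcript, Pabpc1 came first and Tob1 next, and the order over the 53 genes was similar but not the same (Spearman's rho 0.84 across genes, which are not independent replicates).

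**Figure D4:**
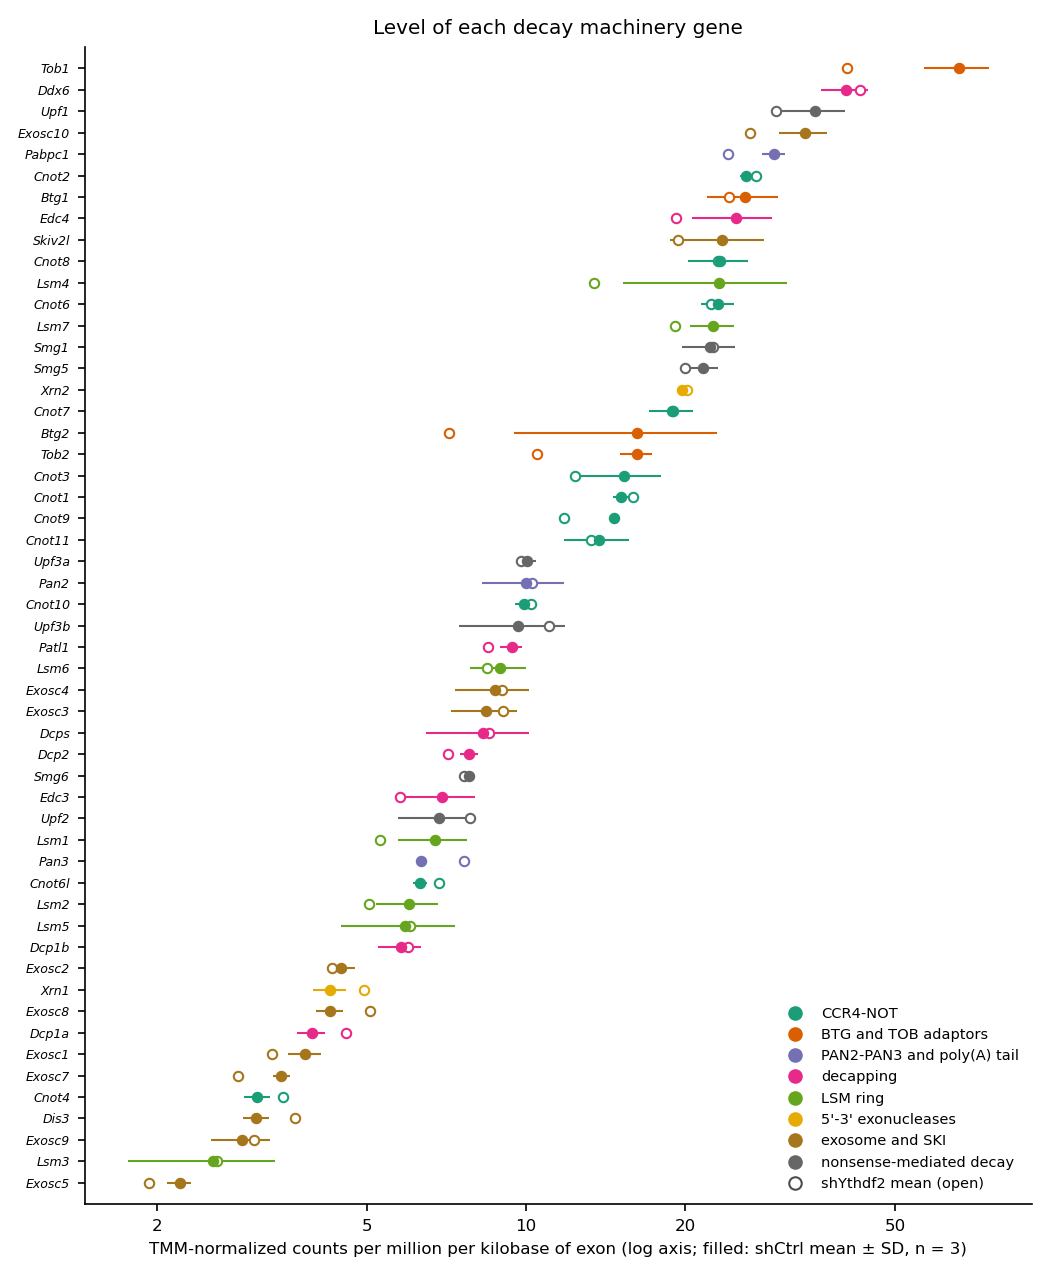
Level of each of the 53 genes in TMM-normalized CPM per kilobase of exon (horizontal log axis); filled points and bars are the shCtrl mean and SD of 3 libraries, open points the shYthdf2 mean, and colours mark the complex. Tob1 is the highest gene in shCtrl at 66.0, and the largest gaps between filled and open points are those of the adaptors Tob1, Tob2 and Btg2 and of Lsm4.

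Sequence features of the mRNAs were set beside the fold changes, as a description. GGACT, a frequent form of the m6A consensus, occurred in the longest coding transcript of 48 of the 53 genes (90.6%) and of 93.1% of the 13719 coding genes tested, at a median of 0.77 and 1.05 per kilobase. Btg2 held 5 matches and Tob1 held 1, while Lsm4 held 0, and the Spearman correlation of matches per kilobase with the log2 fold change was -0.05 over the 53 genes. The GC content of these transcripts varied with the fold change. The correlation was -0.48 over the 53 genes and -0.29 over all coding genes tested, where the genes share the same libraries and are not independent. The transcript of Lsm4 had 59.4% GC, that of Edc4 55.5% and that of Tob1 45.7%, where the median was 48.5% over the 53 genes and 50.3% over all coding genes tested. The part of GC content in the fold changes was not tested.

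A further 54 genes that act with this machinery were listed beside the 53, among them other deadenylases, exosome cofactors, the exon junction complex, the miRNA effectors and RNA-binding proteins that recruit CCR4-NOT. Of these, 52 were tested, 0 passed the adjusted threshold in edgeR (2 in DESeq2 and 0 in limma-voom), and at an unadjusted p under 0.05, 7 were lower and 3 higher. These 10 are 19.2% of the list, near the 20.1% of all genes tested, and the 2 of 52 by DESeq2 stood beside 7.67%. The lower ones included Lsm14b (log2 fold change -0.68, SE 0.15), a P-body protein, Ago2 (-0.58, SE 0.18), the miRNA-guided Argonaute that recruits CCR4-NOT through GW182, and Samd4b (-0.53, SE 0.15), a Smaug protein that recruits CCR4-NOT. Higher values were found for Tnrc6b, a GW182 protein, at 0.40 (SE 0.13), for Samd4, the other Smaug protein, at 0.54 (SE 0.20) and for the nuclear poly(A)-binding protein Pabpn1 at 0.55 (SE 0.23). The groups of Pabpn1 overlapped, with 793 normalized counts in KD replicate 2 and 902, 768 and 823 in the controls. Parn, a deadenylase outside CCR4-NOT, was at 0.01 (SE 0.13).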

How the data were processed

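RNA-seq of cultured GCs was analysed from the deposited table of raw read counts per gene, whose 6 columns are the shYthdf2 and shCtrl libraries. By the study's methods, the authors filtered reads for adapters and quality, mapped them to GRCm38 with HISAT and counted them per gene with HTSeq. The submitters' processing notes instead name Bowtie 0.12.2 and mm9, and the labels and the methods also name different library kits. Genes with low counts were removed with filterByExpr (minimum count 10), libraries were scaled by TMM, and shYthdf2 was compared with shCtrl by the quasi-likelihood test of edgeR 4.0.16 on the whole table, with Benjamini-Hochberg adjustment. The members, complexes and other gene lists were chosen with earlier results of these data known. Members were named library by library if they passed an adjusted p of 0.05 with or without the replicate block, had an unadjusted p under 0.05 without overlap of the groups, or had the largest change of their complex, together with 10 set by name; Btg1 was added after its values were seen. Same-numbered libraries deviated together from their group means, and the number was also used as a block. The correlations were 0.25, 0.36 and 0.32 over the genes for numbers 1, 2 and 4. With replicate 2 apart in both groups, such correlations can arise for every number, so they do not show that libraries of number 1 or 4 are pairs. Over all genes tested, shYthdf2 replicate 1 differed from shCtrl replicates 1 and 4 by a median absolute log2 difference of 0.339 and 0.333. Alternatives were other scalings and filters, DESeq2 1.42.0, limma-voom 3.58.1, a term for replicate 2, replicates 1 and 4 alone, each library left out, and, chosen after seeing the data, replicates 1 and 4 summed. The fits were run on simulated counts with known changes, drawn with no difference between replicate numbers. The simulation therefore does not check how the fits deal with replicate 2 lying apart. Since nothing says that the libraries came from separate animals, p-values measure the spread between these libraries.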

Additional observations from a re-analysis of the deposited data

How the results depend on the processing

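Over the 16 alternatives the log2 fold changes of Tob1 (-0.82 to -0.60), Tob2 (-0.74 to -0.58), Btg2 (-1.50 to -0.97) and Lsm4 (-1.09 to -0.51) kept their sign. None of the 53 genes passed the adjusted threshold in the main comparison. It was passed by 3 with no filter (of 639 genes of the table), 1 with at least 10 counts in every library, 1 with the replicate block (of 232), 14 with a term for replicate 2 (of 3799), 27 with replicates 1 and 4 alone (of 9186, where the libraries lie closest together), 4 with DESeq2 (of 1321) and 0 to 8 with a library left out. The 7 genes at an unadjusted p under 0.05 (13.2% against 20.1% of all genes tested) became 18 with the replicate block (34.0% against 31.6%), 22 with the term (41.5% against 39.5%), 30 with replicates 1 and 4 alone (56.6% against 57.6%), 3 with these summed (5.66% against 5.07%) and 4 to 16 with a library left out (7.55% to 30.2%, against 11.2% to 34.0%), so that the share of all genes moved likewise. The 15 genes without overlap became 13 with library size alone, 37 with replicates 1 and 4 alone and 16 to 29 with a library left out. Where libraries are left out, fewer values make overlap rarer. The share of all genes tested without overlap is not given for these settings, so these counts are no result about the 53 genes. The median log2 fold change of the 53 genes (-0.03) was 0.0027 with library size alone, where that of all genes was 0.04, and -0.079 to -0.037 with a library left out. Ythdf2 had an adjusted p = 0.0465 with the term (edgeR, log2 fold change -0.56), 0.00124 with replicates 1 and 4 alone (-0.32) and 0.0406 with DESeq2 (-0.58). In the other 13 alternatives Ythdf2 did not pass. Its adjusted p there ran from 0.0683 without replicate 2 of shCtrl to 0.943 with replicates 1 and 4 summed (both edgeR). The other decay factors at an unadjusted p under 0.05 (10) were 21 with the term, 38 with replicates 1 and 4 alone, 1 with these summed and 4 to 19 with a library left out. In these settings the share of all genes tested was 39.5%, 57.6%, 5.07% and 11.2% to 34.0%, so that it moved likewise. Immediate-early genes past the adjusted threshold (4) were 10 with no filter, 8 with the replicate block, 12 with the term, 15 with replicates 1 and 4 alone, 0 with these summed, 12 with DESeq2, 0 with limma-voom and 0 to 14 with a library left out. In the same order, 1.98%, 1.35%, 22.1%, 52.7%, 0%, 7.67%, 0.139% and 0% to 18.3% of all genes tested passed. Cnot7 and Cnot8, which lay at 0, changed sign: Cnot7 to -0.0034 with no filter and -0.012 with replicates 1 and 4 alone (-0.071 to 0.068 with a library left out), Cnot8 to 0.023 with library size alone and 0.010 with replicates 1 and 4 alone (-0.099 to 0.098 with a library left out). The median level per kilobase was 17.1 per longest coding transcript instead of 9.67. The cause of these changes was not tested. At the adjusted threshold the replicate block changed no call of a named member other than Tob1, and at an unadjusted p under 0.05 it added Cnot3, Pabpc1, Xrn1, Dis3 and Upf1.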
